A study of Rattus norvegicus with 6 samples.

Results

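Transcription factors that set the identity of nephron segments and shape tubule development were followed in the rat kidney through 8 genes: Hnf4a, Pax2, Pax8, Lhx1, Sox4, Sox9, Gata3 and Elf5. Members were all probe sets (short sets of array probes for 1 transcript) that the array annotation gives to exactly 1 of these symbols. This gave 17 of the 31042 probe sets tested, covering 7 of the 8 genes: 7 for Sox4, 3 for Hnf4a, 2 each for Pax8 and Gata3, and 1 each for Pax2, Lhx1 and Elf5. Sox9 was matched by no probe set in the annotation used here, and no value is given for it. The rule for members uses no measured value, but it was set with earlier results of these data known.

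Whole-kidney RNA of 6 male rats was hybridised to 1 Affymetrix rat expression array per animal. The 3 congenic rats were S.LEW(10)x12x2x3x5, a Dahl salt-sensitive (S) background that carries part of chromosome 10 from the Lewis (LEW) strain. The 3 controls were Dahl S rats. Animals of both strains shared a birth date, were weaned at 30 days, housed with 1 rat of each strain per cage, fed a diet with 0.3% salt and killed at 53 days. The study's title links urinary protein loss to faulty recycling of endosomes in proximal tubules, and the arrays set the kidney RNA of the strains side by side. Values are log2 probe set intensities, on which a difference of 1 is a 2-fold change.

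These factors act in sequence and by segment. PAX2 and PAX8 are paired-box proteins that start and maintain the nephric lineage, and LHX1 is a LIM homeodomain protein needed for the early nephron, all known mainly from the mouse. HNF4A is a nuclear receptor that drives proximal tubule maturation, GATA3 and the ETS-family protein ELF5 belong to the ureteric and collecting duct lineage, and SOX4 and SOX9 are HMG-box proteins of progenitors, with SOX9 also induced in injured tubules.

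Hnf4a has 2 promoters, and both are shown because its 3 probe sets gave differences of both signs and the array does not tell which promoter a transcript came from. From work in other mammals, the downstream promoter (P1) serves liver and kidney, while the upstream one (P2) is used mainly in the pancreas. The windows are from RefSeq on the GRCr8 rat assembly, plus strand, from 250 bases before to 50 after each annotated start, at chr3:172605970-172606269 for the upstream and chr3:172641586-172641885 for the downstream promoter. Capitals mark the exact match to the GATA site AGATAA in the upstream window.
Hnf4a upstream promoter: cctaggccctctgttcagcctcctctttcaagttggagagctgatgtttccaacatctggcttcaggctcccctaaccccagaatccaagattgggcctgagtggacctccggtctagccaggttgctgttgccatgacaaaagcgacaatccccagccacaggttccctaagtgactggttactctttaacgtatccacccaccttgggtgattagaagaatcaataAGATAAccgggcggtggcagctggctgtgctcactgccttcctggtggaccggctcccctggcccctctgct
Hnf4a downstream promoter: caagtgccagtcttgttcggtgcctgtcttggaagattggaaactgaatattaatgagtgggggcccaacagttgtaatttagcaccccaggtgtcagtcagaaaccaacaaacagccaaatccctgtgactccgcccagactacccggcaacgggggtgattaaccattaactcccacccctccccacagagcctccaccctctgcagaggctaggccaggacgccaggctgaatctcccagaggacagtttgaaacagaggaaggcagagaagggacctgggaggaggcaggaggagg
The single GATA match of the upstream window lies 22 to 17 bases before the start, and 11.6% of all 33469 promoter windows of 300 bases in the table hold that motif on either strand. The SOX core ACAAAG (18.8% of all windows), the nuclear receptor hexamer AGGTCA, bound by HNF4A (16.2%) and the paired-domain core GTCACG (7.82%) were also searched on both strands. No further match to any of these 4 motifs was found in the 6 windows available for 5 of the members, Hnf4a, Pax2, Pax8, Lhx1 and Gata3.

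The arrays looked like kidney, with the endocytic receptor gene Lrp2 averaging 13.52 in congenic and 13.61 in S rats and the thick ascending limb gene Umod 14.62 and 14.72. Array medians lay between 7.48 and 7.51. RNA quality was read as the signal of the 3′ minus that of the 5′ controls of beta-actin and Gapdh, averaged, a value that grows as RNA degrades. It was 1.26, 1.01 and 1.08 in congenic rats 1 to 3, against 1.56, 2.10 and 1.70 in S rats 1 to 3 (difference -0.67, exact permutation test, two-sided, p = 0.1, the smallest that 3 against 3 allow). S rat 2 stood apart in cell markers too: summed intensities of 5 distal convoluted tubule markers ran from 19088 to 19452 in congenic rats and were 20331, 2202 and 12426 in S rats 1 to 3. Calb1, Slc12a3 and Slc8a1 carried this, lowest of all rats in S rat 2 (9.38, 9.50 and 9.28). The other measured markers of this list did not follow. In S rat 2 Trpv5 (7.22) lay just above the highest congenic rat (7.20). Pvalb (5.39) lay within the congenic range, at percentile 17.3 of intensity, where a fall could hardly show. Summed podocyte and parietal markers were also lowest in S rat 2 (2649, against 4192 to 4492 in congenic rats). The same held for intercalated cell markers (5554, against 7043 to 7245). Urothelium markers were highest there (2678), and principal cell markers (18759) lay within the congenic range. Of the other marker lists, 6 of 10 tubular injury, 4 of 7 macrophage and 3 of 7 fibroblast markers were called higher (limma, adjusted p under 0.05). Over all genes 2.12% were, by their brightest probe set. Of the 10 injury markers, 2 lay below 0. The remaining lists held at most 1 call each, higher in some and lower in others. The summed intensity of the injury list was 38730 to 42623 in congenic and 27344 to 30559 in S rats. The part of these markers in the members' values was not tested. In bulk tissue, fewer cells of a type and less RNA per cell cannot be told apart.

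Of the 17 member probe sets, 3 differed between the strains (17.6%; limma, Benjamini-Hochberg adjusted p under 0.05 over all 31042). Sox4 was lower in congenic rats at 1 probe set and higher at another, and Hnf4a was higher at 1 probe set. Over the whole array 6.00% of probe sets were called, 3.47% higher and 2.53% lower. By limma, the brightest probe set of none of the 7 genes passed (3 at an unadjusted p under 0.05), where 4.79% of 14217 genes passed by their brightest probe set. Pax2, Pax8, Lhx1, Gata3 and Elf5 had no probe set past the threshold. The count of 3 became 0 when S rat 3, congenic rat 2 or congenic rat 3 was left out (7, 5 and 5 members at an unadjusted limma p under 0.05), and 5 when S rat 1 was. Over the array, 6968, 5575 and 5359 probe sets had such an unadjusted p in the first 3 of these fits. With all rats in, 7 of the 17 members and 25.4% of all probe sets had one. The median log2 change of the 17 was 0.0047, against -0.02 for all probe sets. In 10 of the 17 the groups did not overlap, 4 with congenic above S and 6 below, and in 31.2% of all tested probe sets they did not overlap either.

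**Figure D1:**
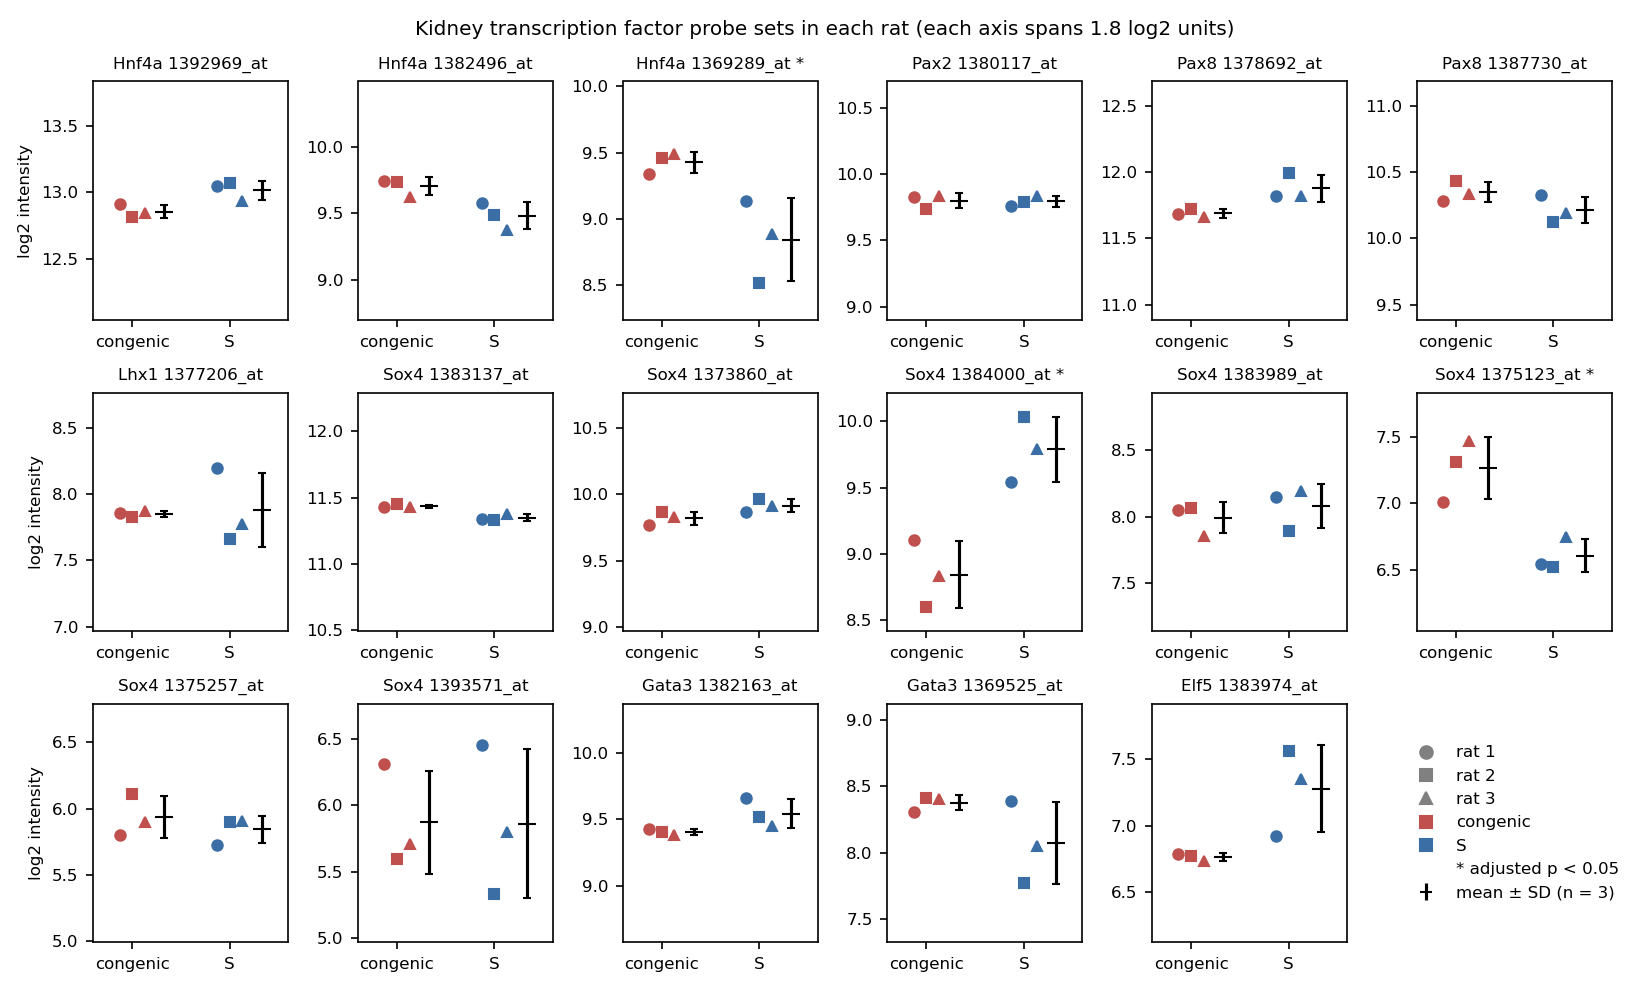
Log2 intensity (vertical axes, each spanning 1.8 units) of the 17 probe sets in congenic rats (red, left) and S rats (blue, right), with a symbol per rat number and the mean ± SD (n = 3) in black. Asterisks mark the 3 probe sets past an adjusted p of 0.05, Hnf4a 1369289_at, Sox4 1384000_at and Sox4 1375123_at, and S rats spread more than congenic rats at Lhx1, Elf5, Hnf4a 1369289_at and Gata3 1369525_at.

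Hnf4a, the proximal tubule regulator, was read by 3 probe sets. At 1369289_at it measured 9.34, 9.46 and 9.49 in congenic rats 1 to 3, against 9.13, 8.51 and 8.89 in S rats 1 to 3. Every congenic rat lay above every S rat, S rat 2 was lowest, and the S spread (SD 0.31) was wider than the congenic one (SD 0.08). The log2 change was 0.58 ± 0.14 (SE), 1.5-fold with a 95% interval of 1.20 to 1.87 (limma, adjusted p = 0.0480). Leaving out S rat 2 ended the call (0.42, adjusted p = 0.0529), and so did leaving out S rat 3, congenic rat 1, congenic rat 2 or congenic rat 3, each in turn (adjusted p from 0.0877 to 0.178 in these 4). With the RNA quality measure as a term in the model the change was -0.09 ± 0.14 (SE).

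The other 2 Hnf4a probe sets lay on opposite sides of 0. The brightest, 1392969_at, measured 12.91, 12.81 and 12.84 in congenic rats, against 13.05, 13.07 and 12.93 in S rats. Congenic rats were the lower ones here, without overlap, and the change of -0.16 ± 0.07 (SE) did not pass (adjusted p = 0.183). At 1382496_at the values were 9.75, 9.74 and 9.63 in congenic rats, against 9.58, 9.49 and 9.38 in S rats, a change of 0.22 ± 0.08 (SE) that did not pass either (adjusted p = 0.114). Within each rat, 1369289_at minus 1392969_at was -3.43 ± 0.13 in congenic and -4.17 ± 0.34 in S rats (SD, n = 3), a shift of 0.75, given as a description because both probe sets already separate the strains in opposite directions. The position of each probe set along the transcript was not analysed here, so no probe set is preferred.

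Sox4, the SOXC-family factor, had calls in both directions. At 1384000_at it measured 9.11, 8.60 and 8.83 in congenic rats 1 to 3, against 9.54, 10.04 and 9.79 in S rats 1 to 3. The groups did not overlap and had the same spread (SD 0.25 each). The change of -0.94 ± 0.15 (SE) is a fold of 0.52 with a 95% interval of 0.409 to 0.662 (limma, adjusted p = 0.0224). At 1375123_at the order was turned, with 7.01, 7.31 and 7.47 in congenic rats, against 6.55, 6.52 and 6.75 in S rats. The change there was 0.66 ± 0.12 (SE), 1.58-fold with a 95% interval of 1.31 to 1.91 (limma, adjusted p = 0.0279).

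Both Sox4 calls were lost without S rat 3 (adjusted p = 0.0907 for 1384000_at and 0.0860 for 1375123_at), without congenic rat 2 (0.0961 and 0.116) and without congenic rat 3 (0.113 and 0.127), with changes from -1.07 to -0.82 and from 0.56 to 0.78 over all 6 omissions. With the RNA quality term the changes were -0.24 ± 0.18 and 0.40 ± 0.24 (SE), and neither passed (limma, adjusted p = 0.862 and 0.809). Over the array, 11 of 4525 genes with 2 or more probe sets (0.243%) had calls in both directions. Of the 10 genes with 7 or more probe sets, Sox4 was the 1 that did.

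The 5 further Sox4 probe sets did not pass. The brightest, 1383137_at, measured 11.43, 11.45 and 11.43 in congenic rats, against 11.34, 11.33 and 11.38 in S rats. Its congenic values lay above all S values, by a change of 0.09 with a 95% interval of -0.05 to 0.22 (adjusted p = 0.407), which holds neither the -0.94 nor the 0.66 of the called probe sets. The next brightest, 1373860_at, lay at -0.10 ± 0.06 (SE) with congenic rats below S rats, and 1383989_at at -0.08 ± 0.10 (SE) with overlap. The dimmest pair, 1375257_at and 1393571_at, lay at percentiles 24.6 and 24.2 of intensity on the array and overlapped between strains. At 1393571_at the S rats alone ran from 5.33 to 6.45, so its interval of -0.62 to 0.64 says little. The difference within each rat between the called probe sets, 1384000_at minus 1375123_at, was 1.58 ± 0.44 in congenic and 3.18 ± 0.29 in S rats (SD, n = 3). That shift of -1.60, 3.03-fold in size, is a description, since the pair was chosen for its opposite calls and could not overlap. Of 11 pairs of probe sets set against each other in this way over the 4 genes with more than 1, 3 overlapped, those of 1383989_at, 1375257_at and 1393571_at with the brightest Sox4 probe set. A pair cannot overlap where its probe sets already separate the strains in opposite directions. That holds for both Hnf4a pairs and for the Sox4 pairs of 1373860_at and 1384000_at with the brightest probe set. The share of such pairs over the array was not computed.

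**Figure D2:**
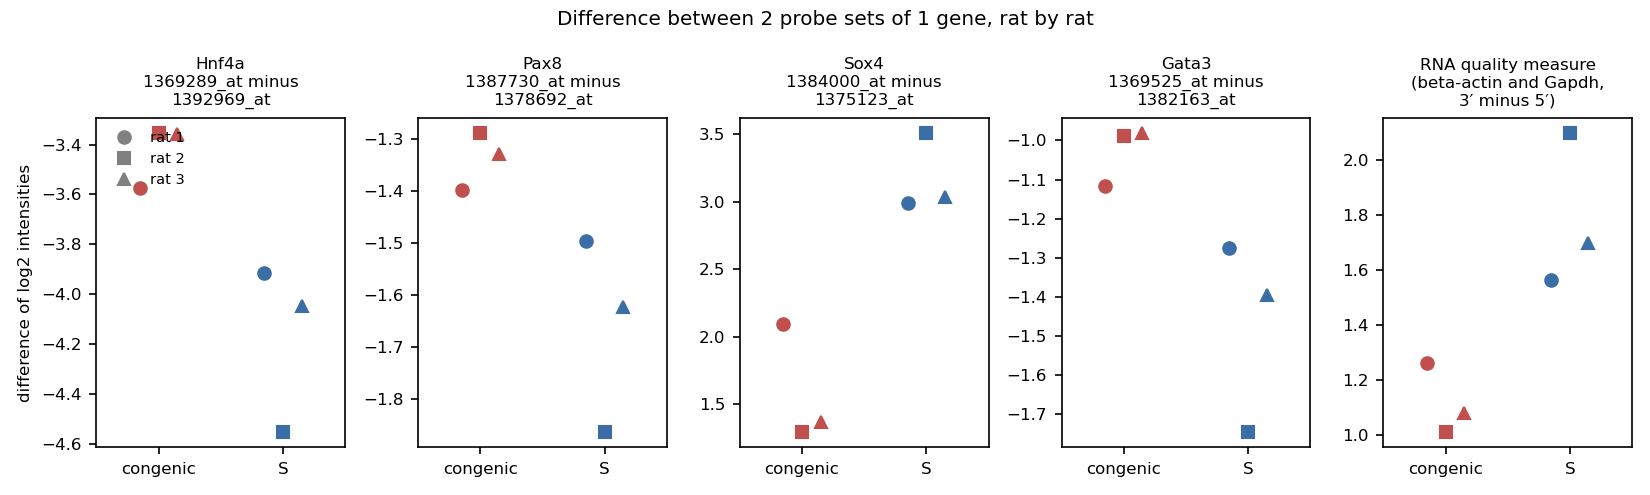
Difference of log2 intensities between a pair of probe sets of 1 gene in each congenic (red, left) and S rat (blue, right), for Sox4, Hnf4a, Pax8 and Gata3, with the RNA quality measure at the far right on the same kind of scale. No panel overlaps, which for the Sox4 and Hnf4a pairs follows from their choice, and S rat 2 (square) is the extreme S value in all 5, with 3.51 for Sox4 and 2.10 for RNA quality.

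Pax8, which keeps tubule epithelium in the renal lineage, had 2 probe sets that pointed in opposite directions below the threshold. The brighter, 1378692_at, measured 11.68, 11.72 and 11.66 in congenic rats, against 11.82, 11.99 and 11.82 in S rats. Congenic rats were lower without overlap, and the change of -0.19 ± 0.07 (SE) did not pass (adjusted p = 0.143). At 1387730_at congenic rats measured 10.28, 10.43 and 10.33 and S rats 10.32, 10.13 and 10.19, which overlap, with a change of 0.14 ± 0.08 (SE, adjusted p = 0.320). Pax2, its close relative, gave the smallest change of the 17, 0.0047 with a 95% interval of -0.14 to 0.15. It measured 9.83, 9.74 and 9.84 in congenic rats, against 9.76, 9.79 and 9.84 in S rats.

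Lhx1, the LIM homeodomain gene, lies on chromosome 10, the chromosome of the congenic segment. In the RefSeq gene order it stands between Aatf and Mrm1 and is measured gene 25 from Rffl, the endosomal ubiquitin ligase gene known from work on this segment, whose limits were not placed here. Lhx1 measured 7.85, 7.83 and 7.87 in congenic rats, against 8.19, 7.66 and 7.77 in S rats. S rats lay on both sides of the congenic rats, and the change was -0.02 ± 0.13 (SE, limma, adjusted p = 0.936), with a 95% interval of -0.31 to 0.26. None of the 3 measured genes on either side of it passed, with changes from -0.24 at Acaca to 0.0087 at Ggnbp2. Sox9 is on the same chromosome.

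Gata3, a zinc finger factor of the collecting duct lineage that T helper cells also use, had 2 probe sets of opposite sign. The brighter, 1382163_at, measured 9.43, 9.40 and 9.38 in congenic rats, against 9.66, 9.52 and 9.45 in S rats. Congenic rats were lower without overlap, by -0.14 ± 0.07 (SE, adjusted p = 0.282). At 1369525_at the values were 8.31, 8.41 and 8.40 in congenic rats, against 8.39, 7.77 and 8.05 in S rats, which overlap through S rat 1. The change of 0.31 ± 0.14 (SE, adjusted p = 0.208) became 0.46 and passed without S rat 1 (adjusted p = 0.0151), and was 0.16 without S rat 2. The summed intensity of 8 T lymphocyte markers ran from 1260 to 1354 in congenic and from 1205 to 1368 in S rats. Of the 8, Cd4 rose (0.48) and 7 did not pass, while 6 lay below 0 and the list median was -0.02.

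Elf5, which is known in mice from mammary gland and collecting duct, was lower in every congenic rat. Its 1 probe set measured 6.79, 6.77 and 6.73 in congenic rats, against 6.92, 7.56 and 7.35 in S rats. S rat 2 was highest and S rat 1 came close to the congenic rats. The change of -0.51 ± 0.14 (SE), a fold of 0.70 with a 95% interval of 0.558 to 0.878, missed the threshold (limma, adjusted p = 0.0674). It was called without S rat 1 (-0.69, adjusted p = 0.00185) and stood at 0.08 ± 0.20 (SE) with the RNA quality term. Of 7 measured urothelial markers Upk1a fell (-0.80) and 6 did not pass, with Upk2 and Krt20 (-0.08) overlapping between strains. Adding the RNA quality term moved their median to -0.02, against -0.51 without it. Their summed intensity was 1335 to 1439 in congenic rats, against 1654, 2678 and 2139 in S rats 1 to 3. Their part in the Elf5 and Sox4 values was not tested. Not every marker list moved toward 0 with the term. The median moved away from 0 for fibroblast (0.36 to 0.60) and macrophage markers (0.35 to 0.50). For tubular injury markers the median moved toward 0, from 0.45 to 0.31. It went from 0.14 to 0.03 for proximal tubule and from 0.77 to -1.59 for distal convoluted tubule markers. Of 8 principal cell markers Aqp4 fell and 7 did not pass, and their summed intensity overlapped (17996 to 19499 in congenic, 18759 to 19772 in S rats).

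**Figure D3:**
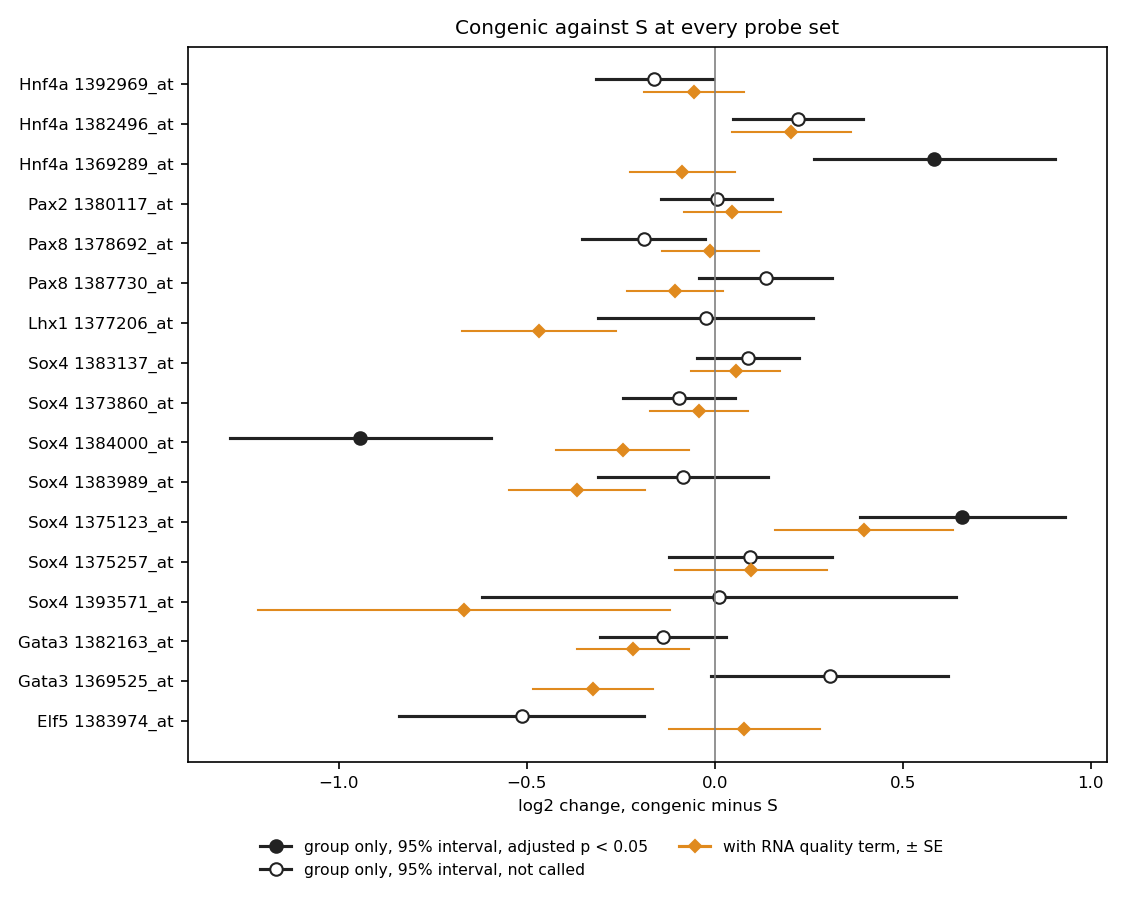
Log2 change, congenic minus S, at each of the 17 probe sets (rows): black circles with 95% intervals for the strain alone, filled where adjusted p is under 0.05, and orange diamonds ± SE with the RNA quality term in the model. The filled circles are at 0.58 (Hnf4a 1369289_at), -0.94 (Sox4 1384000_at) and 0.66 (Sox4 1375123_at), and 5 of the 17 probe sets change sign with the term.

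With the RNA quality term 0 of the 17 probe sets and 0 of all 31042 passed limma's adjusted threshold, and 0 members and 2292 probe sets had an unadjusted p under 0.05, in place of 7 and 7895. The term itself separates the strains. The members that changed sign were Hnf4a 1369289_at, Pax8 1387730_at, Gata3 1369525_at, Elf5 and Sox4 1393571_at. S rat 2, with the widest 3′ to 5′ difference, had the lowest of the 6 values in 4 of these 5 and the highest for Elf5. At several probe sets where the groups overlapped, the term moved the change away from 0. It went to -0.67 ± 0.55 (SE) for Sox4 1393571_at, -0.47 ± 0.20 (SE) for Lhx1 and -0.37 ± 0.18 (SE) for Sox4 1383989_at. Smaller moves away from 0 were at Pax2 (to 0.05), Sox4 1375257_at (from 0.095 to 0.096) and Gata3 1369525_at (from 0.31 to -0.32).

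Other transcription factors of kidney epithelium lay mostly below 0. Of 50 listed, 40 were measured, 30 of them below 0, with a median change of -0.11 by the brightest probe set, against -0.03 for all genes. The share of all genes below 0 was not computed. An unadjusted limma p under 0.05 was reached by 21 of the 40, against 25.4% of all probe sets. In this list 5 fell and 1 rose, where 2.67% of all genes fell and 2.12% rose. Those that fell were Prdm16, a zinc finger regulator (-0.59 ± 0.11 SE, adjusted p = 0.0278), Esrrg, an orphan nuclear receptor of oxidative metabolism (-0.34 ± 0.06), Tfap2b, needed for the distal tubule in mice (-0.31), Sim2, a bHLH-PAS factor (-0.72), and Irx1, an Iroquois factor of the middle nephron segments (-0.51). Esrrg measured 11.28, 11.26 and 11.24 in congenic rats, against 11.55, 11.67 and 11.58 in S rats. The 1 that rose was Maf, a basic leucine zipper factor, at 12.34, 12.18 and 12.22 in congenic rats, against 11.67, 10.67 and 11.14 in S rats (1.09 ± 0.21 SE, adjusted p = 0.0320). With the RNA quality term none of the 40 passed by limma (6 at an unadjusted p under 0.05), Maf stood at 0.23, Prdm16 at -0.20, Esrrg at -0.20, Tfap2b at -0.36, Sim2 at 0.0080 and Irx1 at -0.06, and the list median was -0.09. Without S rat 1, 13 of the list were called, and without S rat 2, 4 were. Without S rat 3, or without any 1 congenic rat, none was (13 to 17 at an unadjusted limma p under 0.05).

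Paralogues of the 8 factors gave no call by limma (3 of 20 at an unadjusted p under 0.05, against 25.4% of all probe sets). Of 29 listed, 20 were measured, 14 of them among the dimmer 40% of the array. Elf3, an epithelial ETS factor related to Elf5, measured 9.24, 9.45 and 9.41 in congenic rats, against 9.10, 8.02 and 8.32 in S rats. Its change of 0.89 ± 0.23 (SE) missed the threshold (adjusted p = 0.0594) and was -0.17 with the RNA quality term. Elf2 stood at 0.28 (adjusted p = 0.0723).

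Of 24 measured genes listed downstream of PAX2, PAX8, LHX1, SOX9 or GATA3, Cdh6, a cadherin of early renal epithelium, rose close to the threshold (0.47 ± 0.12 SE, adjusted p = 0.0499) and 23 did not pass. Cdh6 lay at percentile 31.8 of intensity, and 11 of the 24 were among the dimmer 40% of the array. It stood at 0.14 with the RNA quality term. Its call was lost with quantile normalization (limma, adjusted p = 0.0562) and on omitting any single rat other than S rat 1. Of 13 measured collecting duct genes Aqp4, a basolateral water channel, fell and 12 did not pass. Aqp4 measured 9.63, 9.50 and 9.51 in congenic rats, against 9.88, 10.38 and 10.15 in S rats (-0.59 ± 0.12 SE, adjusted p = 0.0332), and stood at -0.06 with the RNA quality term. Of the 13, 6 lay above 0 and 7 below, with a list median of -0.03.

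**Figure D4:**
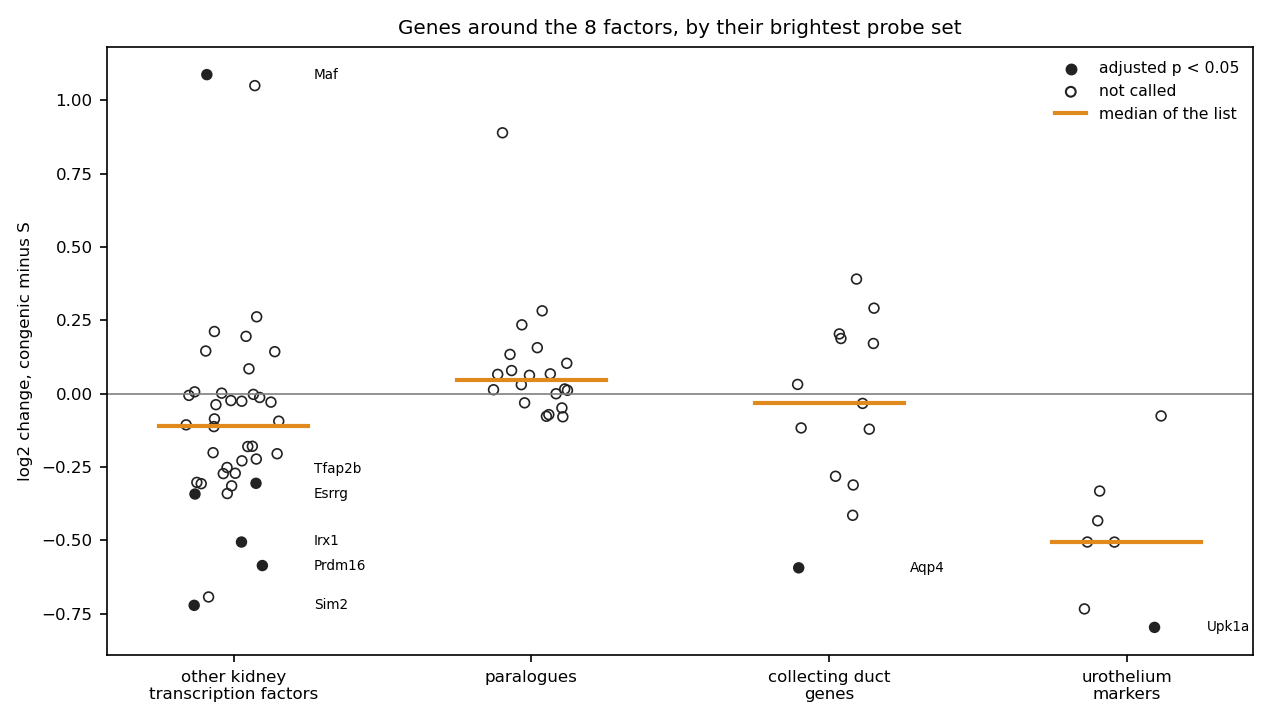
Log2 change, congenic minus S, of genes related to the 8 factors, 1 point per gene by its brightest probe set, filled and named where adjusted p is under 0.05, with list medians in orange. The other kidney transcription factors have a median of -0.11 with 5 named below 0 and Maf above, and the 7 urothelium markers a median of -0.51.

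The genes most like each member were taken by Pearson's r over the 6 arrays, as a description of 6 points that share the strain difference and the spread among S rats. Hnf4a 1369289_at was closest to Actr2-ps1, Tagln2 and Entr1 (r = 0.999 each), and Sox4 1384000_at to Hoxa5 (r = 0.999), Zfp869 and Cnr1 (r = 0.998 each). Elf5 was closest to Cep170b (r = 0.999), Fbxo5 (r = 0.996) and Gprc5b (r = 0.995). For the brightest probe sets of the rest, the nearest genes were Tmem123, Pip5k1c and Stmn2 for Pax2 (r = 0.986, 0.970 and 0.956), and Mmgt2, Ppan and Myh14 for Pax8 (r = 0.998, 0.997 and 0.997). They were Rmdn3, Smagp and Capn6 for Lhx1 (r = 0.996, 0.990 and 0.987), and Hacl1, Ndufc1 and Efr3a for Gata3 (r = 0.990, 0.989 and 0.987). Between probe sets of 1 member, the Hnf4a pair 1392969_at and 1369289_at gave r = -0.81, the Pax8 pair r = -0.74 and the Gata3 pair r = -0.14. Hnf4a 1382496_at gave r = 0.76 with 1369289_at and r = -0.52 with 1392969_at. The called Sox4 pair gave r = -0.91, a sign that its choice for opposite calls favours. The brightest Sox4 probe set gave r = 0.93 with 1375123_at and r = -0.92 with 1384000_at.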

How the data were processed

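The authors deposited log2 intensities per probe set for 6 arrays (the unit is judged from the values). How they were normalized is not given in the sources used. The authors' own tests, per the series' design, used Benjamini-Hochberg adjustment in R 2.8.1. Columns were matched to rats by the labels. Of 31099 probe sets, 57 Affymetrix controls were left out, which leaves 31042; the annotation gives 1 symbol to 20826 of these and several to 436, and lists no entry for 9780. Symbols were updated by Entrez identifier to the RefSeq table of GRCr8, whose positions served only for chromosome and gene order.

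The strain difference was fitted by lmFit and eBayes of limma 3.58.1, run in R 4.3.3 (two-sided, 4 residual degrees of freedom, 8.49 with the prior), adjusted over all tested probe sets. Intervals are 95% intervals of limma's fit. The precision rests on 3 rats per group, since arrays have no read depth, and no detection calls were used. Every probe set of a member is given; in lists the brightest probe set stood for its gene. From each list the genes named are up to 3 with the smallest p among those called, or else the 2 with the smallest p. Tfap2b, Sim2, Irx1, Upk1a, Upk2, Krt20 and Cd4 were named after their values were seen, as were the genes around Lhx1. The same holds for Calb1, Slc12a3, Slc8a1, Trpv5 and Pvalb. For likeness, the member's called probe set with the smallest p was used, or else its brightest, with the 3 nearest genes named. The members, lists and the RNA quality term were chosen with earlier results of these data known. 1 list of the design is not reported here. Rats with the same number in the labels did not deviate together (r from -0.18 to -0.01), and rats with different numbers gave r from -0.25 to 0.38. Deviations from means of 3 rats cannot show whether the numbers pair cage mates. The main fit holds no pairing, and the replicate block is given as an alternative.

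Alternatives were quantile normalization, median centring, leaving out probe sets dimmer than percentile 40, robust eBayes, a trend on intensity, weights per array, a replicate block, the RNA quality term, leaving out each rat, an adjusted p under 0.1, and the most variable probe set per gene. Figures used matplotlib 3.10.9.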

Additional observations from a re-analysis of the deposited data

How the results depend on the processing

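The count of called probe sets over the array (1862) was 0 with the RNA quality term, 6077 with array weights, 658 with the replicate block, and between 0 and 4752 when each rat was left out in turn. Omitting S rat 3 or congenic rat 2 gave 0, with 6968 and 5575 at an unadjusted limma p under 0.05. The count was 4752 omitting S rat 1, 968 omitting S rat 2, 350 omitting congenic rat 1 and 8 omitting congenic rat 3. Of the 17 member probe sets, 3 were called, 0 with the RNA quality term, 6 with array weights, 2 with the replicate block, and between 0 and 5 with 1 rat left out. Hnf4a 1369289_at lost its call under the replicate block (adjusted p = 0.0739) and quantile normalization (adjusted p = 0.0529). Of the 40 other kidney transcription factors 6 were called, 0 with the RNA quality term (6 at an unadjusted limma p under 0.05), 14 with array weights, 1 with the replicate block, and between 0 and 13 with 1 rat left out. Over all alternatives the paralogues (0) had up to 3, the list downstream of PAX2 and the others (1) 0 to 5, and the collecting duct list (1) 0 to 7. The RNA quality difference of -0.67 ran from -0.78 to -0.51 with 1 rat left out. The causes of these moves were not tested.

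Signs turned with the RNA quality term at Hnf4a 1369289_at (-0.087), Pax8 1387730_at (-0.11), Gata3 1369525_at (-0.32), Elf5 (0.078), Sox4 1393571_at (-0.67) and Elf3 (-0.17). Changes near 0 turned as well: Pax2 was -0.0069 with array weights, -0.0092 with median centring and -0.014 to 0.036 with 1 rat left out. Lhx1 was 0.033 with array weights and -0.13 to 0.13 with 1 rat left out. Sox4 1393571_at was -0.031 with array weights, -0.0026 with median centring and -0.25 to 0.31 with 1 rat left out. Sox4 1384000_at and 1375123_at kept their direction under all 14 alternatives and their call under 10 of them. Without detection calls, the levels of the dimmest probe sets may lie at background.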
